A study of Mus musculus with 2 samples.

Results

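The Kazal-type serine protease inhibitors described here are the mouse genes Spink1, Spink5, Spink2, Spink4 and Spink8, 5 of 18952 genes with a named probe on the array. They were found by matching each probe's RefSeq accession to these symbols. Each has 1 probe, printed once per array. Spink1 and Spink5 were chosen because their ratios between the pools were very low, so every ratio below is a description and none was tested. The study compared dorsolateral prostate RNA from 2 pools of mice. The transgenic pool combined 6 ARR2PB-miR32 transgenic mice of strain FVB/N, aged 6 months, in which ARR2PB, an androgen-dependent promoter built from probasin elements and used in prostate epithelium, drives miR-32. The wild-type pool combined 6 FVB/N mice, also aged 6 months, and these are the controls without the transgene. Both pools were hybridised together on 2 dye-swapped arrays, with the transgenic pool in Cy3 on array 1 and in Cy5 on array 2. Each genotype is thus 1 replicate. Errors given as ± are SDs between the 2 arrays, so they measure technical error only and leave out the spread between mice.

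Kazal domains are small, disulfide-bonded protein folds that bind the active site of a serine protease like a substrate and block it. The Spink family consists of secreted proteins built from such domains. In male reproductive glands they are known as inhibitors of trypsin-like activity in seminal fluid. Spink1 is the pancreatic secretory trypsin inhibitor, which in the mouse is also a product of the accessory sex glands that binds sperm. Spink5 encodes LEKTI, a long precursor with many inhibitory domains that restrains kallikreins in the epidermis. Spink2 is known from testis and sperm, Spink4 from goblet cells of the gut, and Spink8 from the mouse epididymis.

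The transgene supplies miR-32, whose mature arms are shown here to make clear what differs between the pools. The seed, bases 2 to 8, is in capitals. The sequences are those of RefSeq on GRCm38.p6. The endogenous arms lie within Tmem245 on the minus strand, miR-32-5p at chr4:56895272-56895293 and miR-32-3p at chr4:56895232-56895252. The labels do not say which arm accumulates, and mature microRNA was not analysed here.
mmu-miR-32-5p: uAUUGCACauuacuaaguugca
mmu-miR-32-3p: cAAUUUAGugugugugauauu

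In the transgenic pool Spink1 and Spink5 were lower, Spink8 was higher, and Spink2 and Spink4 lay at or near background in both pools. Of the 5 genes, 3 were detected, that is, the scanner software marked the probe as well above background on both arrays in 1 pool or in both. Each of these 3 was well above background in both pools on both arrays, so none entered through its higher pool alone. All 3 met the size rule used here, under which a gene is called higher or lower if each array alone shows a 1.5-fold or larger difference and the arrays have the same sign. Of 10436 detected genes, 2.21% passed it in either direction, 0.91% higher and 1.3% lower. Because the genes were chosen on this contrast, nothing is read from that difference. In pooled tissue RNA, fewer cells of a type and less RNA per cell cannot be told apart.

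Spink1 was the lowest of all 10436 detected genes. Its spot had a median intensity of 1100 in Cy3 and 413 in Cy5 for the transgenic pool, against 170409 in Cy3 and 104315 in Cy5 for the wild-type pool. Both transgenic readings were far below both wild-type readings, whichever dye was used. The transgenic spots still stood clear of the local background, which was 27 in Cy3 and 122.5 in Cy5, so a residual signal was measured in the transgenic pool. No spot was saturated. After normalization the log2 level averaged 10.02 ± 0.02 in the transgenic pool and 16.31 ± 0.25 in the wild-type pool. The log2 ratio of transgenic over wild type was −6.13 on array 1 and −6.45 on array 2, a mean of −6.29 ± 0.23 or 78.4-fold lower. The difference between the arrays was small beside the ratio itself. For scale, probes printed 10 times on an array had a median SD of 0.17 in log2 ratio on array 1 and 0.23 on array 2. The scanner software gave 94.9-fold on array 1 and 86.3-fold on array 2, with an error of its own of 0.66 and 0.65 in log2.

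**Figure D1:**
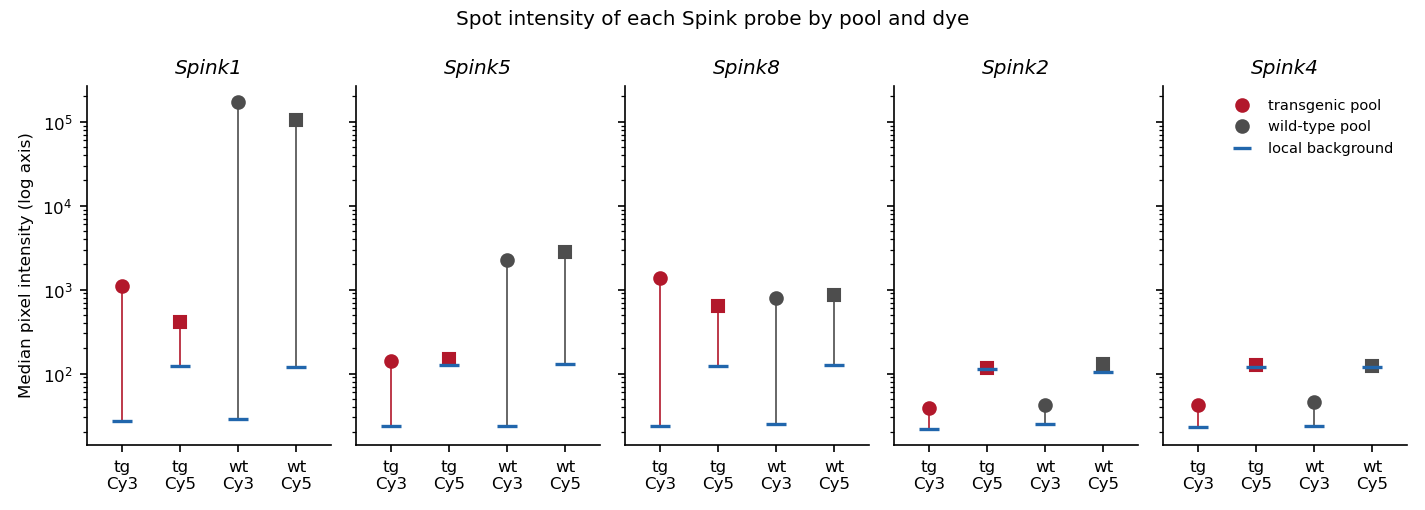
Median pixel intensity (log axis) of the single spot of each Spink probe in the transgenic pool (tg) and the wild-type pool (wt), with circles for Cy3, squares for Cy5 and blue dashes for the local background of that spot and dye. Transgenic Cy3 and wild-type Cy5 come from array 1, and transgenic Cy5 and wild-type Cy3 from array 2. Spink1 and Spink5 spots were brighter in the wild-type pool in both dyes, and Spink2 and Spink4 spots lay close to background in both pools. Intensities of different dyes are not on one scale before normalization, so the Spink8 spots are compared after it in the text.

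Spink5 ranked the third lowest of the detected genes, and the fourth lowest by the scanner software. Its spot read 141 in Cy3 and 150 in Cy5 for the transgenic pool, against 2256.5 in Cy3 and 2771.5 in Cy5 for the wild-type pool. As with Spink1, the transgenic reading was the lower in each dye. The transgenic reading in Cy5 was only 1.18 times its local background of 127, so the ratio on array 2 rests on a weak signal. Log2 levels averaged 7.54 ± 0.47 in the transgenic pool and 10.71 ± 0.23 in the wild-type pool. The log2 ratio was −3.66 on array 1 and −2.68 on array 2, with a mean of −3.17 ± 0.69, or 9.0-fold lower. The scanner software gave −4.17 and −4.19, which is 18.0-fold and 18.2-fold lower. With an offset of 16 in place of 50 added to each signal, the mean was −3.55. Its direction was the same in all 13 settings tried, some of which could not change the value of a gene with 1 probe. Its log2 ratio ran from −4.19 to −2.68 over them.

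Spink8 ran the other way. Its spot read 1382 in Cy3 and 631 in Cy5 for the transgenic pool, against 798 in Cy3 and 865 in Cy5 for the wild-type pool. The raw readings of the pools therefore crossed in Cy5, where array 2, which carried the transgenic pool in this dye, was dimmer as a whole (a median of 10 above local background, against 26 on array 1). After normalization, which removes that difference in brightness, log2 levels averaged 10.44 ± 0.27 in the transgenic pool and 9.08 ± 0.01 in the wild-type pool, with both transgenic values above both wild-type values. The log2 ratio was 1.16 on array 1 and 1.56 on array 2, with a mean of 1.36 ± 0.28, or 2.56-fold higher. Spink8 ranked 22 from the top among detected genes. The scanner software gave 1.37 and 1.44, which placed it 128 from the top of the same genes. The authors' deposited table has 1.37 and 1.42, which placed it 106 from the top of the 6127 genes listed there, taken without the detection rule. With median centring, which scales each array without a correction that follows intensity, the ratio was 1.12 on array 1 and −0.12 on array 2, and the call ended. That setting also moved the median of all detected genes to −0.57, from which the mean of Spink8, 0.50, stood 1.06 higher, against 1.42 in the setting used.

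**Figure D2:**
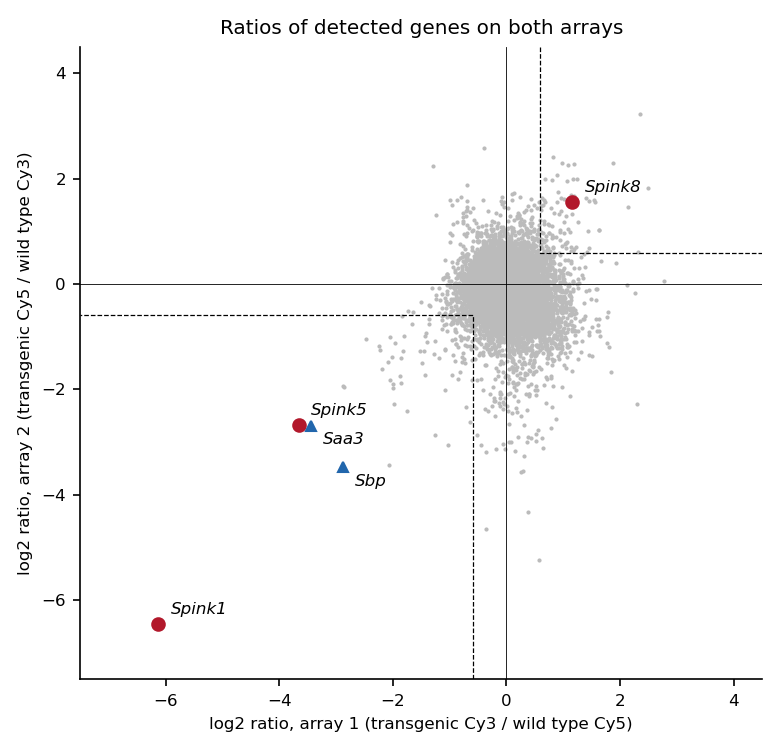
Log2 ratio of transgenic over wild type on array 1 (x axis) and array 2 (y axis) for 10436 detected genes (grey), with the detected Spink genes in red and 2 neighbours in this plane, Sbp and Saa3, as blue triangles. Dashed lines mark 1.5-fold on each array. Spink1 lies apart from all other genes at −6.13 and −6.45, and Spink8 lies above the lines at 1.16 and 1.56.

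Comparison of the normalized levels of the pools within each dye, between arrays, gave the same direction for the 3 detected genes. With Cy3 signals alone the log2 ratio was −6.48 for Spink1, −3.34 for Spink5 and 1.18 for Spink8. With Cy5 signals alone it was −6.10, −3.00 and 1.54 for the same genes. None of these ratios changed sign with the dye. They are not independent of the ratios above, because both dyes of an array enter its normalization and the values of the dyes average to the mean ratio. Before normalization, Spink8 read 631 in the transgenic pool and 865 in the wild-type pool in Cy5.

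Spink2 and Spink4 gave no ratio that can be read. The Spink2 spot read 39 in Cy3 and 117 in Cy5 for the transgenic pool, against 42 in Cy3 and 131 in Cy5 for the wild-type pool, with local backgrounds of 22 to 25 in Cy3 and 103 to 112 in Cy5. It was well above background on 0 of 2 arrays in the transgenic pool and on 1 in the wild-type pool. The Spink4 spot read 42 in Cy3 and 125.5 in Cy5 for the transgenic pool, against 46 in Cy3 and 122.5 in Cy5 for the wild-type pool. It was well above background in Cy3 on each array and in Cy5 on neither, so each pool counted on 1 array. The authors' deposited table lists values for Spink1, Spink5 and Spink8, and none for these 2 probes. In that table Spink1 was at −6.57 and −6.46 on the 2 arrays and Spink5 at −4.17 and −4.21.

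**Figure D3:**
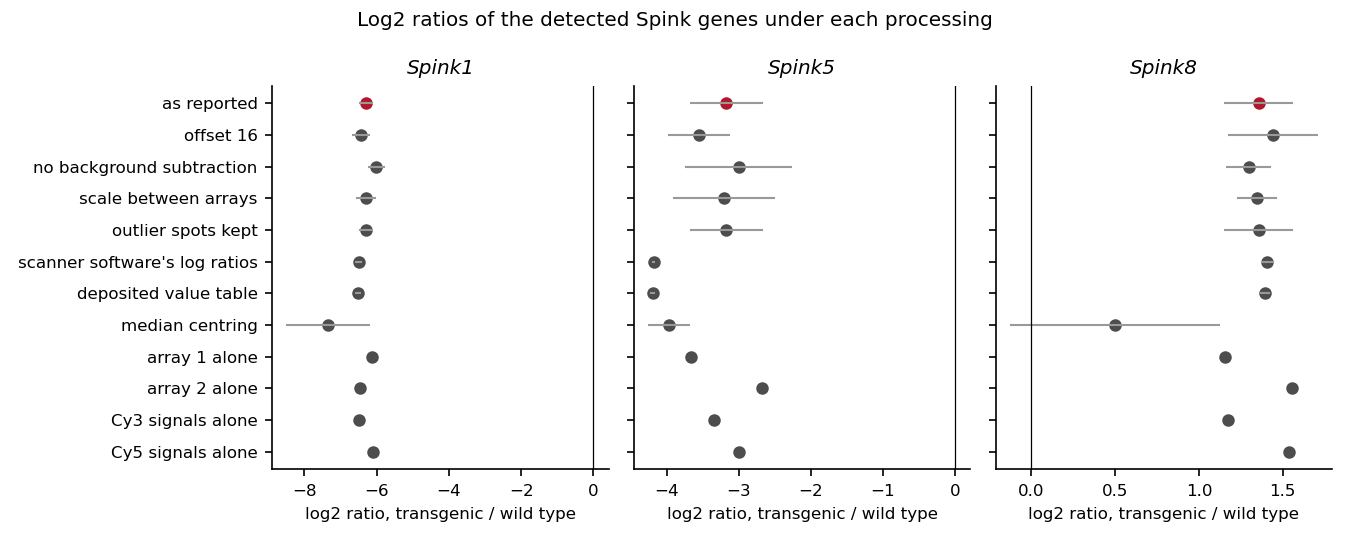
Log2 ratio of transgenic over wild type (x axis) for Spink1, Spink5 and Spink8 under each way of processing (rows). Points are means of both arrays, or the single value where 1 array or 1 dye was used, red for the values reported, and grey lines join the 2 arrays. All points of Spink1 and Spink5 lie below 0 and all points of Spink8 above 0, while median centring brings Spink8 on array 2 to −0.12.

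No other Spink gene with a probe was detected. Of 8 other family members, Spink6, Spink10, Spink12 and Spinkl have a matched probe, Spink7, Spink11, Spink13 and Spink14 were not measured, and 0 of these 4 were well above background in either pool on either array. Their summed normalized intensity was 275 and 272 in the transgenic pool, against 277 and 268 in the wild-type pool, on arrays 1 and 2. Within the measured family, signal in the dorsolateral prostate was therefore limited to Spink1, Spink5 and Spink8 at the sensitivity of these arrays, with Spink2 and Spink4 at the edge of detection.

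Spink1 and Spink5 lie in one cluster of Spink genes on chromosome 18, whereas Spink8 lies on chromosome 9, Spink2 on chromosome 5 and Spink4 on chromosome 4. In the RefSeq gene order of GRCm38.p6, 11 protein-coding genes run from Spink1 to Spink11, and 6 of them have a probe. Only Spink1 and Spink5 of these 6 were detected. Gm94, which lies between them, and Spink6, Spink12 and Spinkl beyond them were not. The 5 nearest protein-coding genes with a probe on each side were also examined, a set chosen after the values were known. Of these 10 flanking genes 3 were detected and 0 passed the size rule. Over all detected genes 2.21% passed it, so 0 of 3 does not set the flanks apart from other genes. The cytoskeletal gene Dpysl3 was at −0.19 ± 0.54, the translation initiation gene Eif3j2 at 0.50 ± 0.74 and the mRNA decapping gene Dcp2 at 0.16 ± 0.04.

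**Figure D4:**
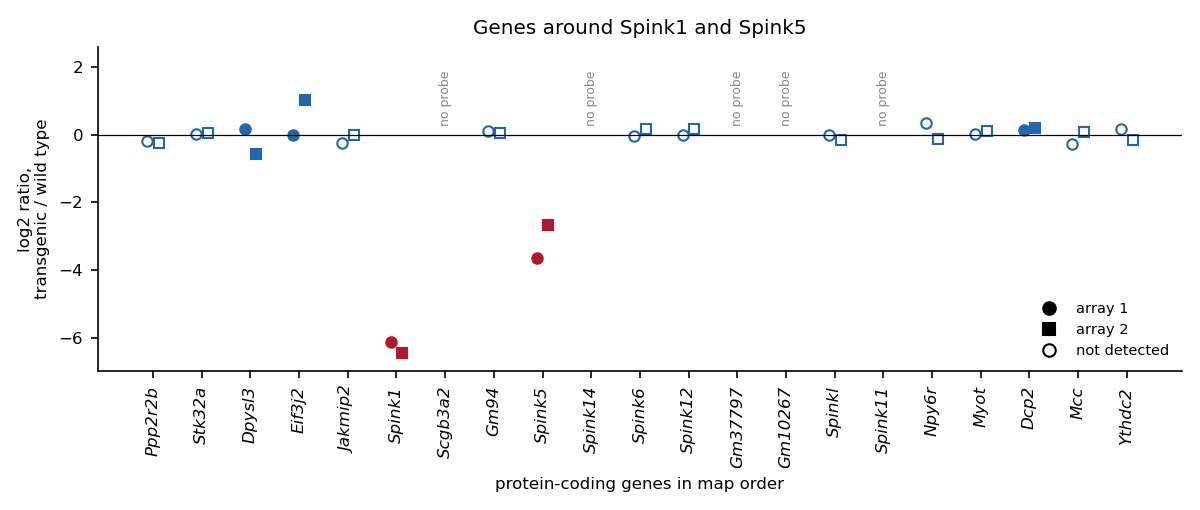
Log2 ratio of transgenic over wild type (y axis) on array 1 (circles) and array 2 (squares) for protein-coding genes in map order around Spink1 and Spink5 (red). Open symbols are probes that were not detected. The 3 detected flanking genes, Dpysl3, Eif3j2 and Dcp2, did not pass the size rule, which 2.21% of all detected genes passed.

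The detected genes closest to each Spink gene in the plane of both array ratios were listed by Euclidean distance in log2 units. No gene came near Spink1: the closest, Sbp, which encodes a secreted spermine-binding protein, lay 4.4 away at −3.18 ± 0.42, followed by Spink5 at 4.51. Spink5 had a close neighbour in the acute phase gene Saa3, at a distance of 0.21 and a mean of −3.07 ± 0.54. Next came Saa1, another acute phase gene, and Reg3g, an antimicrobial lectin, each at a distance of 1.08. For Spink8 the nearest were Lhfpl4 at 1.42 ± 0.34, the angiogenin family ribonuclease Ang4 at 1.41 ± 0.40, and Coro2b at 1.32 ± 0.43. These distances rest on 2 arrays of the same pools.

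Trypsin-like and kallikrein serine proteases, listed by type and not by known restraint by a Spink protein, were mostly below detection. Of 26 genes listed, 22 have a probe and 7 were detected, of which 1 was higher, 0 were lower and 6 were neither. Over all detected genes 0.91% were higher and 1.3% lower, and 7 genes are too few to set against these shares. The median log2 ratio of these 7 was −0.20, beside −0.06 over all detected genes. Of the 7, 3 were detected in both pools, while Prss3, Klk10, St14 and Plat counted through the wild-type pool alone. By the scanner software Hpn (−0.66 and −0.845) and Plat (−0.906 and −0.779) were past 1.5-fold lower on both arrays, as were 5.98% of all detected genes. The epidermal kallikreins held in check by the Spink5 product, Klk5, Klk7 and Klk14, were not detected. Nor were Acr, the sperm acrosin, or the trypsin gene Prss2, while the trypsin gene Prss3 was at −0.01 ± 0.21. Tmprss2, an androgen-regulated transmembrane protease of prostate epithelium, was the gene past the rule at 1.12 ± 0.71. Its other probe was at −0.28. The call of Tmprss2 ended by the scanner software (0.57 on array 1, 3.49 on array 2) and in the authors' deposited table (0.57 and 3.47). In both, only array 1 fell short of 1.5-fold, and the means were 2.03 and 2.02. The call also ended when arrays were centred on their median (0.23) and when the probes of Tmprss2 were averaged (0.42). St14, which encodes matriptase, was at −0.84 ± 0.62 with array values of −0.41 and −1.28. Egfr, a receptor that binds human SPINK1, was at 0.11 ± 0.03, and its 3 other probes at 0.13, −0.06 and −0.40.

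Other proteins with a Kazal-type domain did not pass the rule in either direction. All 22 listed genes have a probe, 11 were detected, and 0 of these were higher or lower. Over all detected genes 2.21% passed the rule in either direction, so nothing is read from 0 of 11. Their median log2 ratio was 0.04. Of the 11, 7 were detected in both pools, while Agrn, Fstl3, Smoc2 and Htra4 counted through the wild-type pool alone. The lowest mean was that of Agrn, the basement membrane protein agrin, at −1.35 ± 1.62, where array 1 gave −0.21 and array 2 −2.50. The highest was that of the secreted protease Htra1 at 0.49 ± 0.60. Follistatin, Fst, was at 0.24 ± 0.21 and Sparc, a matrix protein, at −0.45 ± 0.11, with its other probe at 0.12.

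**Figure D5:**
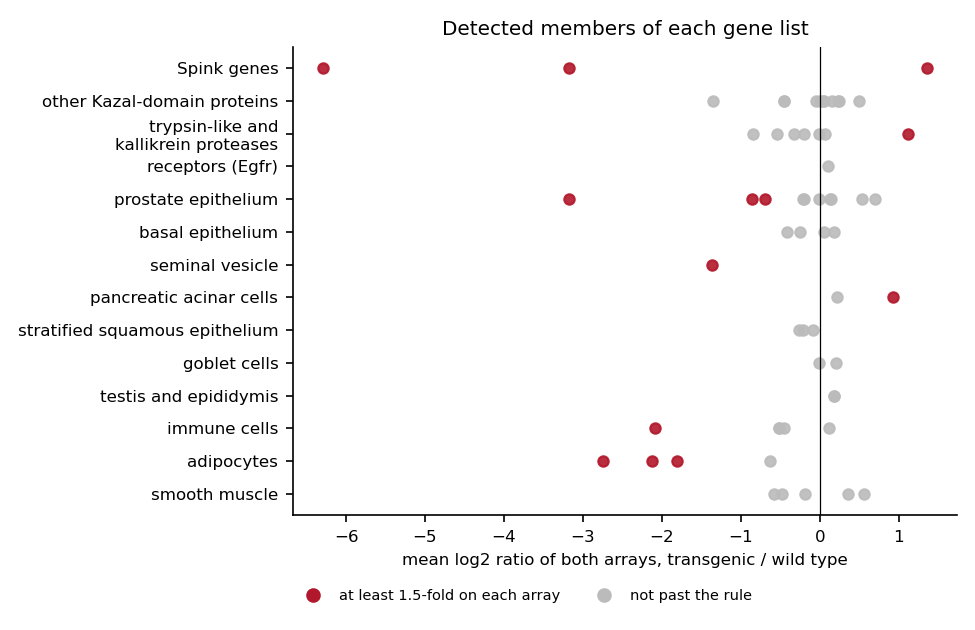
Mean log2 ratio of transgenic over wild type over both arrays (x axis) for detected genes of each list (rows), in red where they met the size rule. The Spink row holds Spink1, Spink5 and Spink8 at −6.29, −3.17 and 1.36. Spink1 was chosen for its very low ratio, so its place below every other list is not a result.

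Markers of the tissue and of other cell types were read beside these values. All 10 prostate markers were detected, and 3 of them, Sbp, Msmb at −0.86 ± 0.37 and Hoxb13 at −0.69 ± 0.03, were lower. The call of Msmb, a secreted microseminoprotein, ended on array 2 by the scanner software (−0.38), in the authors' deposited table (−0.41), with scaling between arrays (−0.56) and without background subtraction (0.38). The summed intensity of that list overlapped between the pools, at 316700 and 503800 in the transgenic pool against 404000 and 321900 in the wild-type pool. This sum is weighted to the brightest genes of the list and does not measure the amount of prostate epithelium. Krt8, a luminal keratin, was at −0.01 ± 0.19. Of 8 seminal vesicle genes with a probe, 7 were not detected, among them all 6 Svs genes, and Ceacam10 was lower at −1.36 ± 0.14. Ceacam10 was well above background on 1 of 2 arrays in the transgenic pool, so it counted as detected through the wild-type pool alone. Of 10 pancreatic acinar genes, another cell type that makes Spink1, 8 were not detected and none was lower, while Ctrb1, a chymotrypsinogen, was higher at 0.93 ± 0.19, a call that median centring ended (−0.72 on array 2). Of 9 markers of stratified squamous epithelium, where Spink5 is best known, Krt1, Krt10, Lor, Ivl, Dsg1a and Sprr1a were not detected. The 3 that were detected, Krt13, Krt4 and Krt6a, did not pass the rule, with means of −0.27 to −0.09. The goblet cell genes Fcgbp and Agr2 were detected and did not pass the rule, and 4 others were not detected. Of 8 testis and epididymis genes 6 were not detected, including Crisp1, Lcn5, Rnase9 and Lcn8 of the epididymis, where Spink8 is best known, and Prm2 and Acrv1 did not pass the rule. None of 4 basal and none of 5 smooth muscle markers passed it.

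In the setting used, several adipocyte markers and 1 immune marker were lower together with Spink1 and Spink5, and more passed by the scanner software's ratios. Of 4 adipocyte markers detected among 5, 3 were lower, namely Cfd at −2.75 ± 0.96, Fabp4 at −2.13 ± 0.22 and Adipoq at −1.81 ± 0.08. Plin1, at −0.63 ± 0.12, did not pass the rule, and Lep was not detected. By the scanner software Plin1 was at −2.249 and −0.921, which is past it. Only Fabp4 was detected in both pools. Cfd, Adipoq and Plin1 were well above background on 1 of 2 arrays in the transgenic pool, so they counted as detected through the wild-type pool alone. The summed intensity of the list was 1507 and 1166 in the transgenic pool, against 5631 and 6311 in the wild-type pool. Of 5 immune markers detected among 7 with a probe, Cd74, the invariant chain of MHC class II, was lower at −2.09 ± 0.47. Ptprc, Lyz2, Csf1r and Cd3e, with means of −0.52 to 0.12, did not pass the rule, and Cd79a and Itgam were not detected. By the scanner software's ratios, 3 of these were past 1.5-fold lower on both arrays. They were Ptprc (−1.785 and −1.092), Lyz2 (−1.103 and −2.831) and Csf1r (−1.147 and −0.592), while Cd3e was not. By those ratios 5.98% of all detected genes were lower in this way. Ptprc and Lyz2 counted as detected through the wild-type pool alone. The immune list summed to 944 and 1204 in the transgenic pool, against 2008 and 3328 in the wild-type pool. Such sums are weighted to the brightest genes, among them Cd74 with a mean log2 intensity of 9.73 over both pools. The immune sum is therefore not separate from the call of Cd74. The part of these cells in the lower Spink1 and Spink5 signal was not tested.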

How the data were processed

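The labels' protocols give Trizol extraction and labelling of 100 ng RNA with Cy3 or Cy5. Per the file headers, Feature Extraction 11.0.1.1 produced the deposited intensities: raw median signals of spot and local background, and processed signals after its own background subtraction and dye normalization. The same deposited files hold log10 ratios of the Cy5 to the Cy3 processed signal. A value table of 8533 rows was also deposited in log2 units, and each column is the software's ratio turned to transgenic over wild type and shifted by a constant, −0.002 on array 1 and −0.025 on array 2 (r = 1.0, slope 1.0, column median 0.0000). The sources used here do not give the filter behind its rows.

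In limma 3.58.1 (R 4.3.3), normexp correction of the median signals (offset 50) was followed by loess within each array, giving weight 0 to control and outlier spots. Ratios were turned to transgenic over wild type by the labelled dyes. Levels are log2 intensities after loess and Aquantile normalization between arrays. Each array held 41174 probes in 43379 spots, Cy5 was well above background at 42.1% of spots on array 1 and 21.1% on array 2, and Cy3 at 58.3% and 57%. The number of arrays limits the precision. Accessions matched a symbol of GRCm38.p6 for 27816 probes. A gene took its brightest detected probe. The array's annotation cites another build, so only gene order was used for genes.

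No p-value was computed, because each genotype is a single pool. The pipeline was tested on simulated data with known changes. The members and the 14 gene lists were chosen with earlier results of these data known. Named genes are the members, the other Spink genes, the 5 detected genes nearest to each detected member (not all printed), list members past the rule, the 2 detected members of each list with the largest mean (printed for the protease and Kazal lists) and the prostate markers (some printed); flanking genes and others shown as examples were chosen after their values were seen. Alternatives were the background correction, offset, normalization within and between arrays, scanner and deposited ratios, outlier spots, probe choice, detection, single arrays and single dyes. Figures were drawn with matplotlib 3.10.9 in Python 3.11.15.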

Additional observations from a re-analysis of the deposited data

How the results depend on the processing

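Spink1 and Spink5 stayed lower and Spink8 stayed higher in the mean of all 13 alternatives run for each. These alternatives are not independent of each other. Each of these genes has 1 probe, which was detected, so averaging probes or ignoring detection could not change its value. No Spink spot was flagged as an outlier. The deposited table is the scanner ratio shifted by a constant, and single arrays and single dyes are parts of the mean reported. Spink1 ranged from −7.35 to −6.00, where the ends are median centring and no background subtraction, and lay between −6.48 and −6.10 with single dyes. Spink5 was at −3.97 with median centring, −4.18 by the scanner software and −4.19 in the deposited table. Spink8 was at 0.50 with median centring, which ended its call on array 2. The cause of these shifts was not tested. Ratios of Spink2, which was at background, were −0.12 as computed, −0.10 without background subtraction, −0.21 with an offset of 16, 0.003 with median centring, 0.24 by the scanner software, −0.003 in Cy3 alone and −0.23 in Cy5 alone, so its sign has no meaning here. Spink4 gave −0.13 to 0.37. Single arrays gave −6.45 to −6.13 for Spink1, −3.66 to −2.68 for Spink5, −0.13 to −0.11 for Spink2, −0.13 to 0.37 for Spink4 and 1.16 to 1.56 for Spink8. The counts over all genes moved more. Of detected genes, 95 were higher and 136 lower, against 149 and 239 with an offset of 16 and 2 and 554 with median centring. By the scanner software 248 were higher and 624 lower, and at 2-fold 25 and 37. In the deposited table, 178 were higher and 119 lower of the 6127 genes it lists, taken without the detection rule. Among genes detected in both pools 94 were higher and 76 lower. Single arrays called 544 to 845 higher and 558 to 1569 lower. No paired analysis was possible because each genotype was 1 pool, measured again on the second array. Cy5 of array 2 was dim, at a median of 10 above local background against 26 on array 1, which limits what can be read for Spink5, Spink2 and Spink4 in the transgenic pool.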
